A study of Mus musculus with 9 samples.

Results

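The synaptic vesicle release machinery is described here as a list of 38 genes that code for the proteins of the neurotransmitter vesicle and of the site where it fuses. Of these genes, 37 had a row among the 21536 genes counted and Pclo was not analysed here. The question was whether myelinated and unmyelinated (C-fibre) sensory neurons use different members of the same protein family. Cells came from the dissociated trigeminal ganglia, which hold the sensory neurons of the face, of wild type FVB/N mice aged 3 to 6 weeks by the labels, or 3 to 5 weeks by the description of the dissection. They were sequenced in 9 Drop-seq runs after a density gradient and depletion of glia. All mice were untreated, and each run pooled animals. The deposited barcodes do not name their run, so the cells form 1 sample and groups of neurons were compared without a test. A further 6 barcodes occurred in 2 columns each, and these 12 columns held 11 neurons, of which 6 were in the groups below.

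A barcode was taken as a neuron when it had 500 to 7500 genes, at least 3 of the 5 neuronal genes Tubb3, Scn9a, Nefl, Nefm and Uchl1 with a UMI (a unique transcript), and no UMI of Epcam. Of 6997 barcodes, 3781 met this rule. They were sorted into 7 groups by the first rule met. The Trpm8 group had 2 or more UMIs of the cold-gated channel Trpm8 (243 neurons), the Mrgprd group 2 or more of the receptor Mrgprd of non-peptidergic nociceptors (379), the Mrgpra3 group 1 or more of the itch receptor Mrgpra3 (49), the Nppb group 2 or more of the itch peptide gene Nppb (53), and the Cd34 group 1 or more of Cd34 (319). The Nefh group had 5 or more UMIs of the heavy neurofilament gene Nefh and none of the capsaicin receptor Trpv1 (449). The Calca-Trpv1 group had 5 or more UMIs of Calca, which codes for CGRP, and 1 or more of Trpv1 (910). The Nefh group is called the myelinated group. The Mrgprd, Mrgpra3, Nppb, Cd34 and Calca-Trpv1 groups together, with 1710 neurons, are called the C-fibre set, and the Trpm8 group was kept apart. These names rest on marker genes, since neither myelin nor conduction was measured. The paper describes a diverse cluster that shares Trpv1, Tac1 and Calca with markers of large neurons, S100b and Nefh among them. Such neurons can meet the Calca-Trpv1 rule, so the C-fibre set may include myelinated neurons. No group took 1379 neurons, which were shallow with a median of 1851 UMIs.

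Genes outside the rule were used to check the names. All 9 genes of a list for large myelinated neurons, among them S100b, Kcna1, Ntrk3 and Pvalb, were 2-fold or more higher in the Nefh group than in the C-fibre set. Of 13 C-fibre genes, 12 were lower in the Nefh group, 9 of them 2-fold or more. The exception was Foxp2 at 7.37 against 1.61 UMIs per 1000000 UMIs of the group (CPM). The 9 myelinated genes summed to 3501 CPM in the Nefh group and 725 in the Trpm8 group. Among the C-fibre groups, the Cd34 group was highest at 794, followed by the Nppb group at 419. The Calca-Trpv1, Mrgpra3 and Mrgprd groups stood at 290, 152 and 138. Whether the Cd34 group holds myelinated neurons was not tested. Median depth was 4112 UMIs in the Nefh group and 4349 in the C-fibre set, and it ranged from 3500 in the Nppb group to 5842 in the Cd34 group. The summed level of 7 glial genes was 976 CPM in the Nefh group and 1276 in the C-fibre set, and that of 7 red blood cell genes 3376 and 4665. Their part in the results was not tested.

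Fast transmitter release works through a small set of proteins. A vesicle SNARE (a synaptobrevin, Vamp) zips up with the plasma membrane SNAREs Snap25 and syntaxin (Stx), complexins (Cplx) hold and assist the assembled complex, and a synaptotagmin (Syt) triggers fusion when it binds calcium. Synapsins tether vesicles in a reserve, Rab3 proteins and the active zone scaffolds (Rims, Bassoon, Erc2) bring them to the membrane, Unc13a primes them, and Nsf with its SNAP adaptors takes the used complexes apart. Most of these proteins come in several isoforms from separate genes. In this assay each transcript was counted once, from its 3′ end, and capture may differ between genes. Results are therefore led by the share that 1 gene took of its family's UMIs and by how that share differed between groups. Levels, in CPM, have exact Poisson 95% intervals, shares have exact binomial (Clopper-Pearson) 95% intervals, and ratios have exact conditional intervals. All of these cover counting error only.

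The upstream sequence of 4 genes whose isoform shares are described below is shown first, because Syt2, Vamp1 and Cplx1 are the sensor, SNARE and complexin higher in the myelinated group and Syt1 is the partner of Syt2. Each is the 250 bases before a RefSeq transcription start in the GRCm38.p6 assembly, 5′ to 3′, with GC boxes (GGGCGG or its reverse complement CCGCCC) in capitals. The Syt2 windows lie at chr1:134646362-134646611 and chr1:134709050-134709299 on the plus strand, Vamp1 at chr6:125215331-125215580 on the plus strand, Cplx1 at chr5:108550028-108550277 on the minus strand and Syt1 at chr10:109010976-109011225 on the minus strand.
Syt2, upstream start: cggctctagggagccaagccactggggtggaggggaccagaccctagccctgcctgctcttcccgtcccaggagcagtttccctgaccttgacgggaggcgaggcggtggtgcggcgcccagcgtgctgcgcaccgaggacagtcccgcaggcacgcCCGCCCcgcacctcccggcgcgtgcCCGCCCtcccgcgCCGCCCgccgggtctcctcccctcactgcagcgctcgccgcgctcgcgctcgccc
Syt2, downstream start: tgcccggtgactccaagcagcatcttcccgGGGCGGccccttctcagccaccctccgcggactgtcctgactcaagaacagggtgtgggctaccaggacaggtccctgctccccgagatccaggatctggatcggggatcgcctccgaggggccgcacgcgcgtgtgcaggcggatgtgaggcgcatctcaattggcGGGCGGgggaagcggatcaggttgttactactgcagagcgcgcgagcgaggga
Vamp1: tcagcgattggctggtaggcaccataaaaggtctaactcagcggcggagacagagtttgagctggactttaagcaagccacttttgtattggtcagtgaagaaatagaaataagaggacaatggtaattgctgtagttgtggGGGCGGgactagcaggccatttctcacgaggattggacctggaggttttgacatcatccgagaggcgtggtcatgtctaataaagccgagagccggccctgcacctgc
Cplx1: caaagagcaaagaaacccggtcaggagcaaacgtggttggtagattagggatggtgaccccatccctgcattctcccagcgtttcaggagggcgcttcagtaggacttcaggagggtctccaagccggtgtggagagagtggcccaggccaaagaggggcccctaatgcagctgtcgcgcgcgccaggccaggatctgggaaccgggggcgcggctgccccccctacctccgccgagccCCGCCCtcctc
Syt1: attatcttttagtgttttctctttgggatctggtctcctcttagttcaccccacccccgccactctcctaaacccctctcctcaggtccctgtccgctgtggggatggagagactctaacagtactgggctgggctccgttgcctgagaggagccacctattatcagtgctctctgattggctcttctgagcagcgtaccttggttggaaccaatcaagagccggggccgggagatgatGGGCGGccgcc

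The upstream Syt2 window held 3 GC boxes and was 76.0% G or C, and the downstream window held 2 and was 66.4% G or C. The Vamp1, Cplx1 and Syt1 windows held 1 each. A second Syt1 start, not shown, had none. Entries were found for 28 of the 37 members, with 36 windows in all. The GC box was in 21 of these 36 windows, from 20 genes, against 32.7% of the 32851 windows of all genes. The median G and C content was 61.2% in the members' windows and 52.4% in all. The TATAAA motif, read on both strands, was in 3 members' windows, from Rab3b and Sv2b, against 12.4% of all windows. The CCAAT motif was in 9 members' windows, those of Syt2 and Vamp1 among them, against 33.8% of all windows. Each match is a description of the letters in these windows. GC boxes occurred upstream of members higher in the myelinated group (Syt2, Vamp1, Cplx1, Syn2, Rab3b) and upstream of Syt9, which was lower there, but not in the windows of Sv2b, which was higher.

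Among the 37 members, 7 (18.9%) were 2-fold or more higher in the myelinated group than in the C-fibre set. Of 12939 genes with at least 20 UMIs, 8.4% were called this way. Another 4 members (10.8%) were 2-fold or more lower, which is the same share as the 10.8% of those genes. The higher members were Sv2b, Syt2, Rab3b, Vamp1, Cplx1, Syn2 and Snap25, and the lower members were the synaptotagmins Syt4, Syt5, Syt7 and Syt9. The median log2 ratio of the members was -0.09, beside -0.07 over all genes tested, with members past 2-fold in both directions. The members together took 1.02% of UMIs in the Nefh group, 0.846% in the C-fibre set and 0.969% in the Trpm8 group. Against each C-fibre group singly, 10 members were above all 5 groups (17.8% of all genes were) and 9 were below all 5 (15.3% of all genes). The comparisons with single C-fibre groups share the Nefh neurons. Against the Mrgprd group 9 of 37 members were 2-fold or more higher (16.3% of all genes tested) and 6 lower (11.1%). Against the Mrgpra3 group 9 of 35 were higher (15.6%) and 6 lower (10.7%), and against the Nppb group 9 of 35 were higher (15.1%) and 4 lower (10.6%). Against the Cd34 group 5 of 37 were higher (10.6%) and 3 lower (7.1%), shares near those of all genes, and against the Calca-Trpv1 group 7 of 37 were higher (9.91%) and 5 lower (10.9%). Syt2, Vamp1, Sv2b and Rab3b were called higher against each of the 5 groups, and Syt9 was called lower against each. C-fibre groups also differed among themselves. Relative to the Calca-Trpv1 group, the Mrgprd group had 2 members 2-fold or more higher (8.16% of all genes tested), Syt1 and Syt7, and 6 lower (15.7%). The Cd34 group had 7 higher (8.95%), Syt1, Syt7, Vamp1, Sv2b, Cplx1, Rims1 and Nsf, and 6 lower (13.4%). The summed level of the glial genes was 2381 CPM in the Cd34 and 855 in the Calca-Trpv1 group, and that of the red blood cell genes 3885 and 6225, and their part in these differences was not tested. Some lower counts include Vamp3 or Syn3, which were not above the red blood cell-like level in neurons. Across the 7 groups the highest level of a member was a median of 3.42 times its lowest. That fold was under 2 for 9 members, with Napa the smallest at 1.25, and 5 or more for 12 members, with Syt2 the largest. The Syt2 fold of 90.9 has the Mrgprd group as its lowest, whose level from 10 UMIs is read below as background, so it is not exact.

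**Figure D1:**
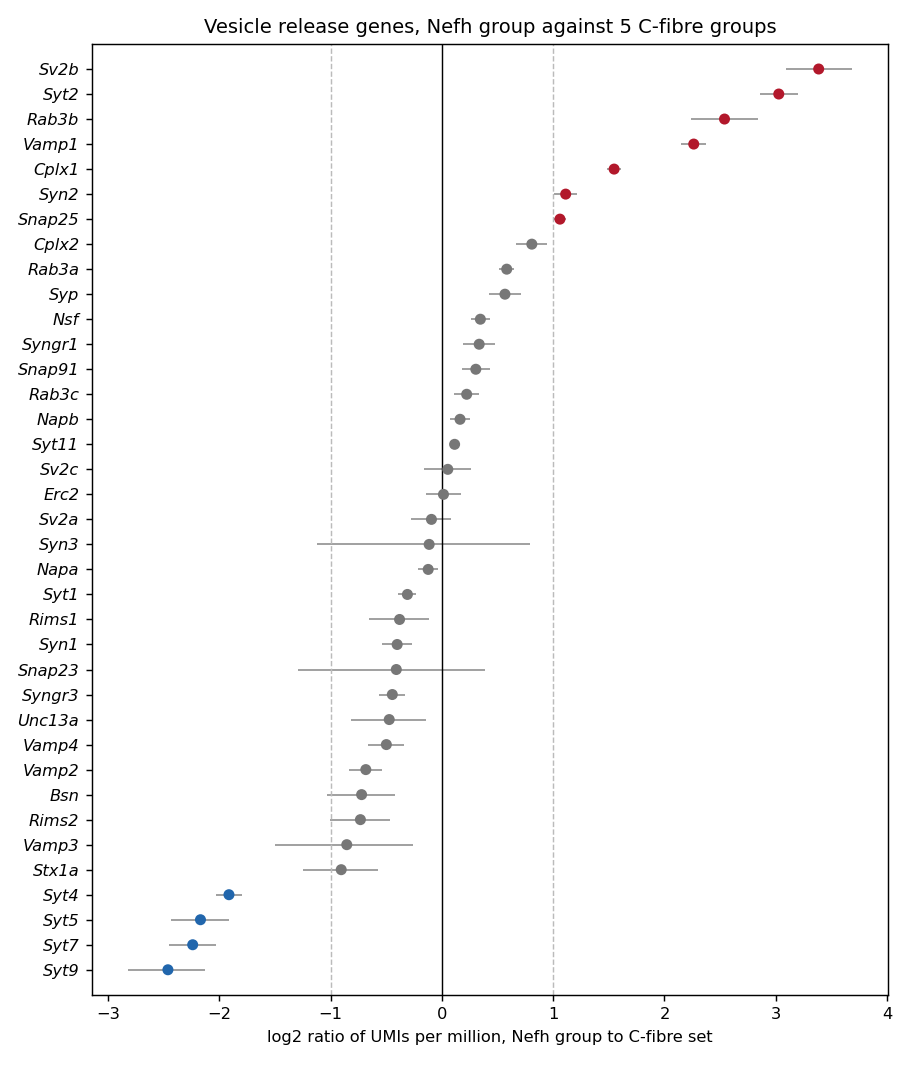
The log2 ratio of CPM in the Nefh group to that in the C-fibre set is plotted for each of the 37 members, with bars for the 95% counting interval and dashed lines at 2-fold. Red points are the 7 members called higher, led by Sv2b at 3.39 and Syt2 at 3.03, blue points are the 4 called lower, and grey points lie between.

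The largest gene of a family was another one in the myelinated group than in the C-fibre set in 6 of the 13 family sets examined, and in 3 of them no C-fibre group shared the leader of the myelinated group. Those 3 were Vamp1 and Vamp2, the same pair counted again with Vamp3 and Vamp4 added, and the Sv2 family. In the synapsins the leader was shared with the Nppb and Calca-Trpv1 groups. In 2 of the 6 sets the leader was not resolved beyond counting error, with Rims1 at 50.9% (44.8 to 57.0) in the Nefh group and Napa at 50.8% (49.7 to 51.8) in the C-fibre set. The Nefh leader was shared in Rims1 and Rims2 with the Mrgprd and Cd34 groups, and in Napa and Napb with the Calca-Trpv1 group. The sensors Syt1 and Syt2 kept 1 leader, Syt1, although the Syt2 share differed widely.

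Synaptotagmins are the calcium sensors, and Syt1, Syt2 and Syt9 are known as fast ones. Syt2 stood at 278 CPM (95% interval 260 to 296) in the Nefh group and at 155 in the Trpm8 group. It stood at 47.9 in the Cd34 group, 47.7 in the Calca-Trpv1 group, 43.8 in the Nppb group, and 3.06 in the Mrgprd and 3.09 in the Mrgpra3 group. The Nefh group was above every other group, and the Mrgprd and Mrgpra3 groups were near 0, with 10 and 1 UMIs. The Cd34 level came from 38 of 319 neurons with a Syt2 UMI, and of the 241 with 3 or more UMIs of Syt1 and Syt2, 222 were in the lowest of 5 classes of the Syt2 share and 7 and 6 in the highest 2. The level was 8.15 times that of the C-fibre set (log2 3.03, interval 2.86 to 3.20). The log2 ratio was 2.41 with the Trpm8 group added to the set and 3.61 with 2 or more UMIs of Mrgpra3, Cd34 and Trpv1 asked for. Syt1 went the other way by less than 2-fold, with 442 CPM in the Nefh group and 547 in the C-fibre set. It was highest in the Trpm8 group at 946 and lowest in the Calca-Trpv1 group at 276.

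The Syt2 share of Syt1 and Syt2 UMIs was 38.6% (36.7 to 40.6) in the Nefh group and 5.86% (5.32 to 6.45) in the C-fibre set, 32.8 percentage points apart. Among the C-fibre groups it was 14.7% in the Calca-Trpv1, 11.7% in the Nppb, 5.79% in the Cd34, 0.513% in the Mrgpra3 and 0.409% in the Mrgprd group, and it was 14.1% in the Trpm8 group. The Nefh group stood above all of these. The intervals of the Calca-Trpv1, Trpm8 and Nppb groups overlapped, so these 3 did not differ beyond counting error, and the wide Nppb interval (6.17 to 19.5, from 103 UMIs) also met that of the Cd34 group. A UMI of Syt2 was seen in 62.4% of Nefh neurons and 12.3% of C-fibre neurons, against 0.913% of 438 red blood cell-like barcodes (median 1358 UMIs), which should lack it. With each cell thinned to 1000 UMIs, the shares were 24.9%, 3.04% and 0 of 438 barcodes, where the floor of 3 counts allows a share of up to 0.685%. In the Mrgprd group 1.85% of neurons (0.746 to 3.77) had a Syt2 UMI, which overlaps the red blood cell-like share and was read as background.

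Syt4 and Syt11 are a related pair, of which Syt4 is best known from dense-core vesicles that carry peptides. Syt4 stood at 198 CPM in the Nefh group and at 744 in the C-fibre set, 3.77 times higher in the latter (log2 ratio -1.91, interval -2.03 to -1.80), and the log2 ratio was -1.18 without the Calca-Trpv1 group. By group it stood at 1168 in the Calca-Trpv1, 636 in the Mrgprd, 545 in the Mrgpra3, 535 in the Trpm8, 339 in the Nppb and 248 in the Cd34 group, so the Nefh group was the lowest of the 7. Syt11 was the member counted most often, at 1563 in the Nefh group and 1444 in the C-fibre set. Syt11 took 88.8% of the pair's UMIs in the Nefh group and 66.0% in the C-fibre set, where it ranged from 53.8% in the Calca-Trpv1 group to 85.2% in the Cd34 group. Glia-like barcodes held Syt11 at 1146 CPM and Syt4 at 30.4.

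Syt7 is known for slow, delayed release and Syt9 as a fast sensor, and Syt5 belongs to the same family. Syt5 stood at 37.7 CPM in the Nefh group and from 66.0 in the Cd34 group to 319 in the Mrgpra3 group among C-fibre groups. The C-fibre set was 4.50 times higher (log2 ratio -2.17), and only the Trpm8 group, at 18.9, was below the Nefh group. Syt9 was 21.8 in the Nefh group, 38.7 in the Trpm8 group, 56.0 in the Cd34 group and 121 to 230 in the other 4, so the Nefh group was the lowest (log2 ratio to the C-fibre set -2.46). Syt7 was 4.72 times higher in the C-fibre set (log2 ratio -2.24), at 268 against 56.9 CPM, and the log2 ratio was -1.35 with cells thinned and -1.54 with cells weighted equally. It was highest in the Mrgprd (569), Mrgpra3 (446) and Cd34 (227) groups, and it stood at 93.2 in the Calca-Trpv1 group. The Nppb group stood at 40.1 (20.0 to 71.8, from 11 UMIs), not apart from the Nefh group. The Syt5 share of Syt5 and Syt9 was 63.4% in the Nefh group and 58.5% in the C-fibre set, inside the range of the C-fibre groups.

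**Figure D2:**
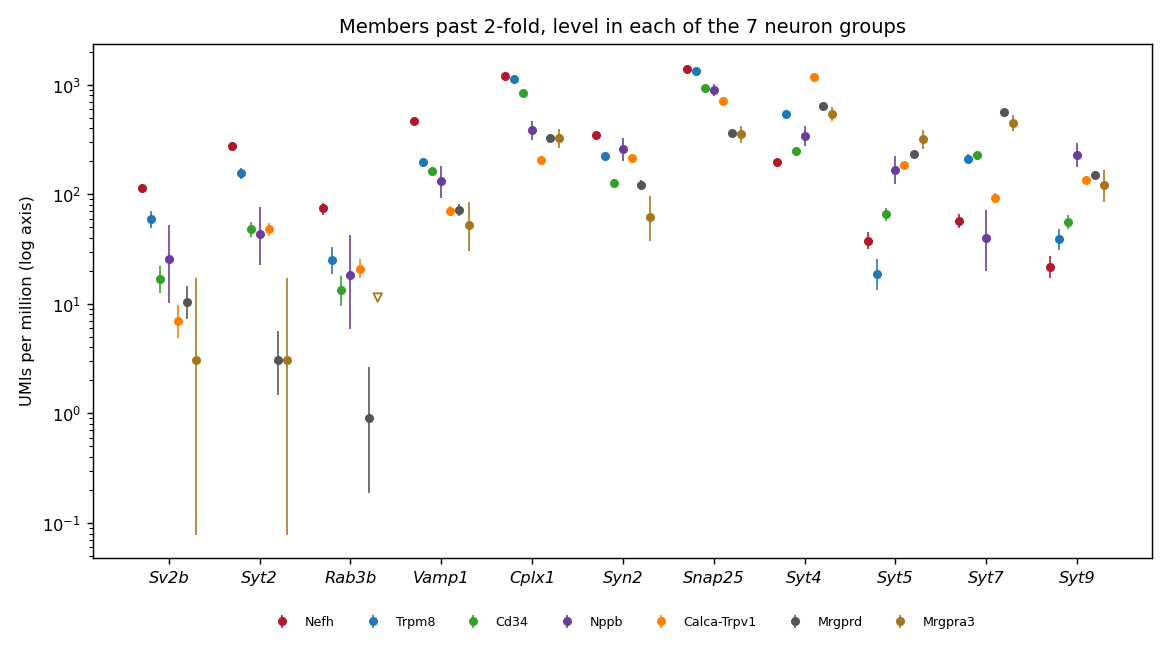
Levels of the 11 members past 2-fold are plotted on a log axis of CPM, with a point for each of the 7 groups and bars for the 95% Poisson interval, and an open triangle marks the upper limit where a group had no UMI. The Nefh group (red) lies above every C-fibre group for the first 7 genes, and for Syt7 it lies beside the Nppb group.

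The vesicle SNARE showed the widest difference in share. Vamp1 stood at 462 CPM (439 to 485) in the Nefh group. It stood at 195 in the Trpm8, 163 in the Cd34, 131 in the Nppb, 72.1 in the Mrgprd, 71.0 in the Calca-Trpv1 and 52.6 in the Mrgpra3 group. The Nefh group was again the highest, and the ratio to the C-fibre set was 4.8 (log2 2.26, interval 2.15 to 2.37). Vamp2, the main synaptobrevin of forebrain synapses, was lowest in the Nefh group at 134, with 168 in the Trpm8 group and 197 to 257 in the C-fibre groups. Its log2 ratio of -0.68 did not reach 2-fold. The Vamp1 share of the pair was 77.5% (75.6 to 79.3) in the Nefh group and 30.9% (29.4 to 32.4) in the C-fibre set. By group it was 53.7% in the Trpm8, 44.5% in the Cd34, 40% in the Nppb, 25.7% in the Calca-Trpv1, 23.1% in the Mrgprd and 17.0% in the Mrgpra3 group. The Nppb interval (29.8 to 50.9, from 90 UMIs) overlapped those of the Trpm8 and Cd34 groups, and the intervals of the last 3 groups in that order overlapped. Vamp1 was seen in 72.6% of Nefh neurons and 32.3% of C-fibre neurons against 1.14% of red blood cell-like barcodes, and after thinning in 32.3%, 7.66% and 1.14%.

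Vamp4, a SNARE of the endosomal and Golgi route, took 15.1% of the UMIs of the 4 Vamp genes in the Nefh group and 31.8% in the C-fibre set. The Vamp4 level, 108 against 152 CPM, was 2-fold or more lower in the Nefh group only with cells thinned. Vamp3 was at 7.95 CPM in the Nefh group and 14.4 in the C-fibre set. Both were below the 28.2 of red blood cell-like and the 129 of glia-like barcodes. The summed red blood cell genes stood at 4665 CPM in the C-fibre set and 451683 in red blood cell-like barcodes. Glial genes stood at 1276 in the C-fibre set and 110588 in glia-like barcodes. Whether the Vamp3 UMIs in neurons came from other cells was not tested. Snap23 and Syn3 were not above the red blood cell-like level in neurons either, and no difference in level was read from Vamp3, Snap23 or Syn3.

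**Figure D3:**
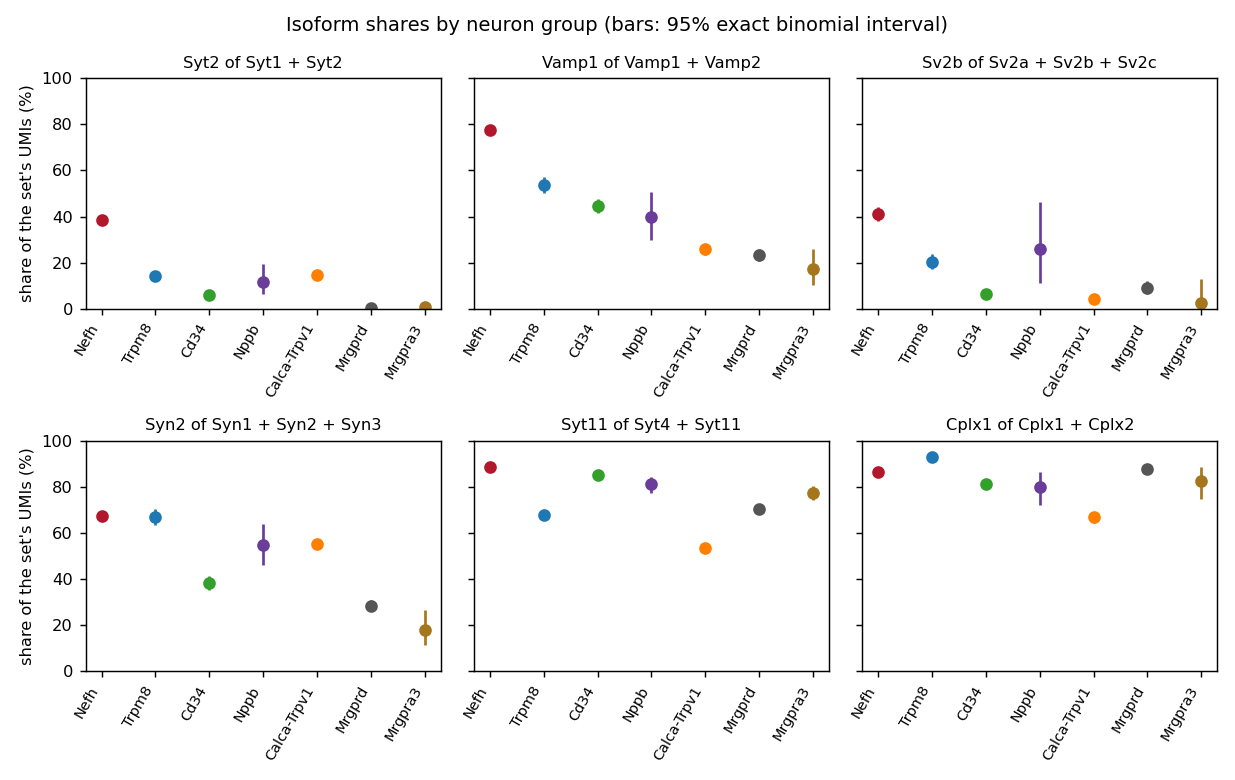
Each panel plots, for the 7 groups, the share in percent of a family's UMIs taken by the gene named first, with 95% exact binomial intervals. Syt2, Vamp1 and Sv2b shares are highest in the Nefh group, at 38.6%, 77.5% and 41.1%, whereas the Syn2 share of the Trpm8 group equals that of the Nefh group within counting error and its Cplx1 share is higher.

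The plasma membrane SNARE Snap25 stood at 1399 CPM in the Nefh group, 1345 in the Trpm8, 938 in the Cd34, 901 in the Nppb, 715 in the Calca-Trpv1, 365 in the Mrgprd and 353 in the Mrgpra3 group. The Nefh and Trpm8 groups did not differ beyond counting error and lay above the others. The ratio of the Nefh group to the C-fibre set was 2.09 (log2 1.06). The log2 ratio fell under 2-fold with cells thinned (0.93), with cells weighted equally (0.94) and with the Trpm8 group added to the C-fibre set (0.86). Snap25 took 99.7% of Snap25 and Snap23 UMIs in the Nefh group and 99.1% in the C-fibre set. Stx1a, the syntaxin partner, stood at 25 in the Nefh group and 46.9 in the C-fibre set, with the Cd34 group at 25.6. The Stx1a difference did not reach 2-fold here, but was 2-fold or more lower in the Nefh group under 4 alternatives, without neurons that met several group rules, with cells weighted equally, without the Cd34 group and without Calca-rich myelinated neurons.

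Complexin 1 was abundant in 3 groups and low in the rest. Cplx1 stood at 1197 CPM in the Nefh, 1119 in the Trpm8 and 833 in the Cd34 group, and at 383, 325, 324 and 205 in the Nppb, Mrgpra3, Mrgprd and Calca-Trpv1 groups. The ratio of the Nefh group to the C-fibre set was 2.92 (log2 1.55). The log2 ratio was 2.21 without the Cd34 group, 1.21 with the Trpm8 group added to the set and 1.12 without the Calca-Trpv1 group. Cplx2 was 188 in the Nefh group and 107 in the C-fibre set, and its highest C-fibre group was Cd34 at 189. The Cplx2 difference did not reach 2-fold here, but was 2-fold or more under 4 alternatives, with cells thinned, with 2 or more UMIs of Mrgpra3, Cd34 and Trpv1, without the Cd34 group and with the red blood cell-like level subtracted. The Cplx1 share was 86.4% in the Nefh group and 79.2% in the C-fibre set, with the C-fibre groups between 67.0% and 88.0%. These values join Nefh neurons rich in Calca with those without, which differed widely in Cplx2 and are given apart below.

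The Sv2 glycoproteins are vesicle membrane proteins. Sv2b stood at 113 CPM in the Nefh group, 59.5 in the Trpm8, 25.5 in the Nppb, 16.8 in the Cd34, 10.4 in the Mrgprd, 6.99 in the Calca-Trpv1 and 3.09 in the Mrgpra3 group. The Nefh group was the highest, and at 10.4 times the C-fibre set Sv2b had the largest ratio of any member (log2 3.39, interval 3.09 to 3.69). The log2 ratio was 2.63 with the Trpm8 group added to the set and 4.08 without neurons that met several group rules. Sv2b took 41.1% of the family's UMIs in the Nefh group and 6.13% in the C-fibre set, although the Nppb share of 25.9% rests on 27 UMIs and its interval (11.1 to 46.3) reached that of the Nefh group. The other shares in the Nefh group and the C-fibre set were Sv2a at 33.9% and 56.4% and Sv2c at 24.9% and 37.5%. The share of Sv2a was low in the Mrgprd and Nppb groups too (28.0% and 25.9%), where Sv2c led. Sv2a stood at 133 CPM in glia-like barcodes and 113 over all neurons. An antisense gene overlaps exons of Sv2b in GENCODE vM21, as for the other called members Syn2, Rab3b, Syt4 and Syt7. The same was found for Syn1, Syn3, Syp, Rab3a, Unc13a and Erc2, and exons of Bsn overlap a gene on its own strand. Shares that include any of these genes have the same limit, since whether counting used strand is not given in the sources used here.

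The synapsins tether vesicles. Syn2 stood at 351 CPM in the Nefh group and from 61.9 in the Mrgpra3 to 259 in the Nppb group among the C-fibre groups, 2.16 times the C-fibre set (log2 1.11, and 0.90 with cells thinned). Syn1 stood at 164 in the Nefh group and 217 in the set, without reaching 2-fold, and the lowest C-fibre group, Calca-Trpv1, was at 166. The Syn2 share was 67.6% in the Nefh and 67.1% in the Trpm8 group, 55.4% in the Calca-Trpv1, 55% in the Nppb, 38.3% in the Cd34, 28.5% in the Mrgprd and 18.0% in the Mrgpra3 group. In the set of Syp, Syngr1 and Syngr3, which are related vesicle proteins, the Syngr3 share was 39.6% in the Nefh group and 54.9% in the C-fibre set, and Syp was 30.9% and 21.3%. Syngr3 stood at 218 and 296 CPM in these sets, Syp at 170 and 115, and Syngr1 at 162 and 129.

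Of the Rab3 GTPases, Rab3b stood at 74.2 CPM in the Nefh group and 25 in the Trpm8 group. It stood at 21.0 in the Calca-Trpv1, 18.2 in the Nppb, 13.3 in the Cd34 and 0.917 in the Mrgprd group, and no UMI was seen in the Mrgpra3 group, where 3 UMIs would be 9.28. The ratio to the C-fibre set was 5.81, but the level in the set, 12.8, was close to the 10.4 (4.18 to 21.4) of red blood cell-like barcodes. The log2 ratio of 2.54 was 1.25 with cells thinned, 3.40 without the Calca-Trpv1 group and 4.74 with the red blood cell-like level subtracted. Rab3a was the main gene in all 7 groups, with 69.6% of the family in the Nefh group and 68.7% in the C-fibre set, and Rab3b took 7.16% and 1.82%. Of the active zone genes, Rims1 took 50.9% of Rims1 and Rims2 in the Nefh group and 44.8% in the C-fibre set, between 21.3% in the Calca-Trpv1 and 77.6% in the Cd34 group, so this pair split the C-fibre groups more than it set the Nefh group apart. Bsn (31.8 against 52.4 CPM), Unc13a (26.5 against 36.8), Rims2 (39.5 against 65.6) and Erc2 (125 against 124) did not reach 2-fold, although Rims2 was 2-fold or more lower without the Cd34 group.

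Of the genes that recycle vesicles and take SNARE complexes apart, Napa, Snap91 and Napb had the smallest folds between the highest and lowest of the 7 groups among the members, at 1.25, 1.5 and 1.56, while that of Nsf was 3.07. Nsf stood at 438 CPM in the Nefh group and 344 in the C-fibre set, Napa at 358 and 390, Napb at 423 and 378, and the clathrin adaptor gene Snap91 at 208 and 169. Napa took 45.8% of Napa and Napb in the Nefh group and 50.8% in the C-fibre set. Napa was also the member with the highest level in red blood cell-like barcodes, at 147.

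Single neurons were examined for 5 pairs of related members. Only neurons with 3 or more UMIs of a pair were used, which favours deeper cells. Syt2 outnumbered Syt1 in 88 of 266 Nefh neurons (33.1%, 27.5 to 39.1) and in 30 of 750 C-fibre neurons (4.0%, 2.71 to 5.66). Vamp1 outnumbered Vamp2 in 158 of 189 Nefh neurons (83.6%, 77.5 to 88.6) and in 74 of 470 C-fibre neurons (15.7%, 12.6 to 19.4). In the Trpm8 group the counts for these 2 pairs were 3 of 195 and 47 of 95. Sv2b outnumbered Sv2a in 51 of 83 Nefh neurons (61.4%, 50.1 to 71.9) and in 10 of 138 C-fibre neurons (7.25%, 3.53 to 12.9). Syn2 outnumbered Syn1 in 146 of 197 Nefh neurons (74.1%, 67.4 to 80.1) and in 213 of 585 C-fibre neurons (36.4%, 32.5 to 40.5). The complexins were much closer, and Cplx1 outnumbered Cplx2 in 306 of 338 Nefh neurons (90.5%, 86.9 to 93.4) and in 544 of 632 C-fibre neurons (86.1%, 83.1 to 88.7), with overlapping intervals. UMIs of both Syt1 and Syt2 were found in 200 of 449 Nefh neurons and of both Vamp1 and Vamp2 in 148, but with each cell thinned to 1000 UMIs in 9.13% and 2.45% of neurons. The Syt2 shares of single Nefh neurons were spread over the whole range, with 98 of 266 neurons in the lowest of 5 equal classes and 40 in the highest, whereas 104 of 189 were in the highest class of the Vamp1 share.

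**Figure D4:**
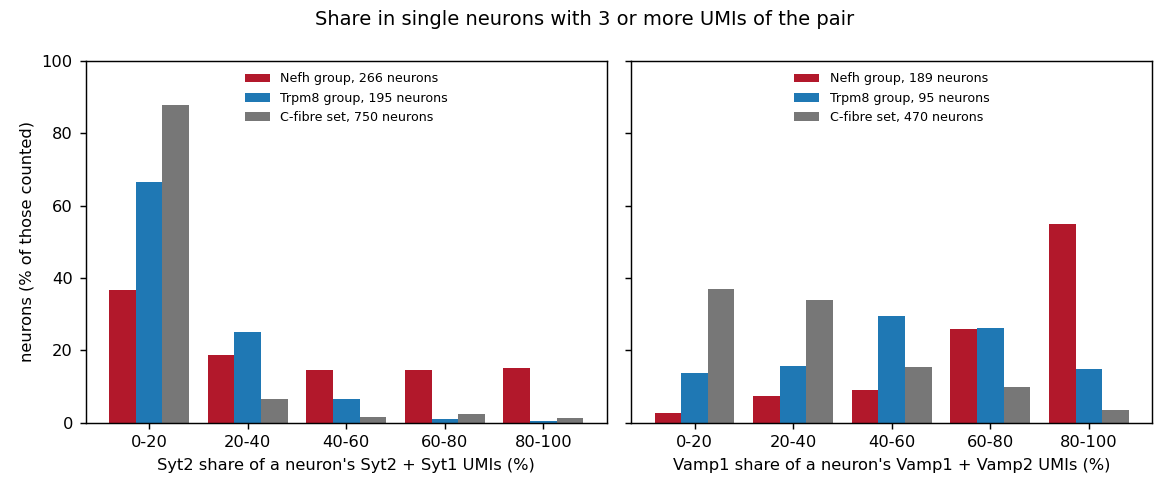
Bars give the percent of neurons of the Nefh group (red), Trpm8 group (blue) and C-fibre set (grey), among neurons with 3 or more UMIs of the pair, in 5 classes of the share of Syt2 (left) or Vamp1 (right) within a neuron. Nefh neurons span all Syt2 classes but gather in the highest Vamp1 class, while the 750 and 470 C-fibre neurons lie mostly in the lower classes.

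The Nefh group holds neurons with and without Calca, and it was split at 5 or more UMIs of Calca (89 neurons, median 6021 UMIs) against 0 or 1 (321 neurons, median 3652 UMIs). Among 35 members tested, 4 were 2-fold or more higher with Calca (4.85% of all genes tested) and 2 were lower (7.96% of all genes). Cplx2 differed most, at 476 CPM with Calca and 81.1 without (log2 ratio 2.55, interval 2.29 to 2.83), and Stx1a, Syt5 and Syt4 were higher by 1.73, 1.42 and 1.36 on the log2 scale. Syt1 and Vamp1 were lower, at -1.16 and -1.06. The Cplx1 share was 63.2% (60.4 to 66.0) with Calca, beside 67.0% (64.5 to 69.3) in the Calca-Trpv1 group. These intervals overlapped only at their ends, and whether the shares differ was not tested. Without Calca the Cplx1 share was 94.4% (93.5 to 95.3), above every C-fibre group. The Vamp1 share was 62.0% and 81.8%, and each exceeded that of every C-fibre group. The Syt2 share was 45.7% with Calca and 35.7% without. Thinned to 1000 UMIs per cell, the Cplx1 shares were 62.2% and 94.0%, and the Vamp1 shares 55.2% and 82.9%.

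In the Calca-Trpv1 group, neurons with 5 or more UMIs of Nefh (77, median 11255 UMIs) were set beside those with none (381, median 2682 UMIs). The rule itself makes this difference in depth. The summed genes for large myelinated neurons stood at 809 CPM with Nefh and 114 without. Whether the neurons with Nefh are myelinated was not tested. Of 35 members tested, 3 were 2-fold or more higher with Nefh (2.56% of all genes) and 0 lower (2.52%). They were Vamp1, at 131 against 46.3 CPM (log2 ratio 1.5, interval 1.05 to 1.96), Vamp3 and Sv2b. Vamp3, at 16.4 against 5.40 CPM, was under the 28.2 of red blood cell-like barcodes in both, and the interval for Sv2b held 0. The Vamp1 share was 41.2% (35.8 to 46.7) with Nefh and 17.6% (13.7 to 22.1) without, and after thinning 34.6% (17.2 to 55.7, from 26 UMIs of the pair) and 17.5% (10.6 to 26.6, from 97), with overlapping intervals. The Cplx1 share was 68.6% and 66.9%, so it did not differ beyond counting error. The Syt2 share was 17.1% and 11.2%, with overlapping intervals. The red blood cell genes stood at 4037 CPM with Nefh and 6339 without. Glial genes stood at 1145 and 952, and the part of either set in these differences was not tested.

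Neurons of the Trpm8 group mostly held Nefh, with only 10 of 243 at 0, so they were divided at the group's median of Nefh per UMI, a choice made after seeing the data. The split at 5 or more UMIs of Nefh against those 10 neurons called 6 of 34 members higher (4.34% of all genes tested) and 10 lower (55.6%), but those neurons held 19912 UMIs in all, and it was not used further. With the division at the median, the neurons rich and poor in Nefh had median depths of 5636 and 6105 UMIs. Of 34 members tested, 2 were 2-fold or more higher in the neurons rich in Nefh (4.03% of all genes) and 3 lower (6.24%). Cplx1 stood at 1551 against 626 CPM and Vamp1 at 256 against 126, while Cplx2 stood at 27.4 against 141, and Syt5 and Syt9 were lower too. The Cplx1 share was 98.3% against 81.7% and the Vamp1 share 61.1% against 41.9%. The Syt2 share, 14.8% against 12.8%, did not differ beyond counting error. The red blood cell genes stood at 2744 CPM in the neurons rich in Nefh and 5499 in those poor in it, and the glial genes at 203 and 313, and their part in these differences was not tested.

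**Figure D5:**
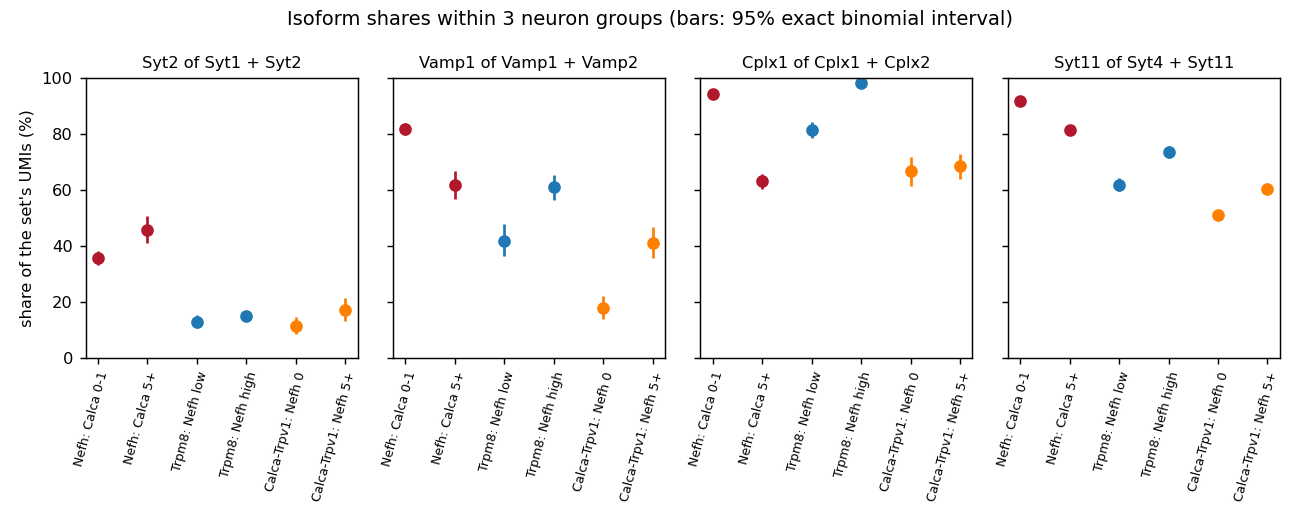
Shares of Syt2, Vamp1, Cplx1 and Syt11 in percent are plotted for pairs of subsets of the Nefh (red), Trpm8 (blue) and Calca-Trpv1 (orange) groups, with 95% exact binomial intervals. The Vamp1 share is higher in the subset with more Nefh of the Trpm8 and Calca-Trpv1 groups (61.1% and 41.2%), and the Cplx1 share is 94.4% in Nefh neurons without Calca against 63.2% with it.

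Against the C-fibre set, 5 members were 2-fold or more higher in the Trpm8 group (6.43% of all genes tested) and 7 lower (16.1% of all genes). The higher members were Sv2b, Syt2, Cplx1, Vamp1 and Snap25, which were also among those higher in the Nefh group, and both comparisons share the C-fibre neurons. The lower members were Syt5, at 18.9 against 170 CPM, Syt9, Bsn, Vamp3, Rims1, Syn1 and Syn3, of which Vamp3 and Syn3 (3 UMIs in the Trpm8 group) were not above the red blood cell-like level. The glial genes summed to 254 CPM in the Trpm8 group and 1276 in the C-fibre set, and Vamp3 and Syn3 were at 129 and 56.9 CPM in glia-like barcodes. The part of glial RNA in these lower counts was not tested. The Nefh group was 2-fold or more above the Trpm8 group in 3 of 36 members tested (11.5% of all genes), Rab3b, Vamp1 and Cplx2, and below it in 4 (4.76%), Syt7, Syt4, Syt1 and Rims2. Syt7 stood at 211 CPM in the Trpm8 group and Syt4 at 535.

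Of 53 further release genes, 52 had a row and 47 had enough UMIs to be tested. Of these, 9 were 2-fold or more higher in the Nefh group than in the C-fibre set (8.4% of all genes tested) and 10 were lower (10.8%). Among the higher genes were the synaptotagmins Syt3 (62.5 against 8.04 CPM), Syt12 (12.1 against 1.95), Syt13 (8.54 against 1.52) and Syt17 (4.71 against 0.338, from 16 and 4 UMIs), the endophilin Sh3gl2 (156 against 51.2), Cadps2 (28.9 against 9.47), Stxbp5l (18.3 against 4.99) and Rims4 (3.54 against 0.846, from 12 and 10 UMIs, with a log2 interval of 0.73 to 3.43). Lower were the vesicle protein Synpr (79.8 against 427), Rab27b (34.2 against 169), which acts on dense-core vesicles, its relative Rab27a (13.6 against 28.9), Unc13c (12.1 against 45.9), Unc13b (13.0 against 26.2), Syt6 (93.4 against 195), Stx2 (68.6 against 154), Rims3 (56.6 against 128) and Syngr2 (5.89 against 17.1). The last was Rph3al, with 2 UMIs in the Nefh group, whose log2 ratio of -1.45 had an interval of -4.59 to 0.60. Synpr split the C-fibre groups, with 832 CPM in the Mrgprd and 27.8 in the Calca-Trpv1 group, and Unc13c stood at 98.4 to 118 in the Mrgprd, Mrgpra3 and Nppb groups and at 2.91 in the Cd34 group. Rab27a and Syngr2 were lower in the Cd34 group (2.59 and 1.62 CPM, from 8 and 5 UMIs) than in the Nefh group, with log2 ratios of Nefh to Cd34 of 2.39 (1.29 to 3.68) and 1.87 (0.41 to 3.63). The median log2 ratio of the 47 genes was -0.13.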

How the data were processed

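Trigeminal ganglia were dissociated, enriched for neurons and sequenced by Drop-seq. The authors demultiplexed reads with bcl2fastq 2.17, aligned them to mm10 with STAR 2.5.3a and worked in Seurat 1.4.0.16, per the labels, and deposited 1 table of raw UMI counts per gene and barcode, without normalization. It holds 6997 barcodes with 1000 to 190815 UMIs (median 2031). Whether counting used strand is not given in the sources used here. Neurons and groups were chosen by the UMI rules given in the results. Red blood cell-like, glia-like and anterior pituitary-like barcodes were chosen by 3 or more markers and a share of UMIs. Red blood cell-like and glia-like barcodes also had at most 1 of the 5 neuronal genes, so levels of neuronal RNA there may be low by choice. No doublet caller was run and no barcode was left out as a doublet. Of the neurons in groups, 349 met several rules and were left out in an alternative.

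Counts were summed over each group with Python 3.11.15, numpy 2.4.6, scipy 1.17.1 and pandas 2.3.3. A gene was called at 2-fold or more among those with at least 20 UMIs over both sets, with no test and no p-value, and a zero was replaced by 3 UMIs in a ratio. Values are named for members past 2-fold, for family sets with a share difference of 15 points or more, and for further release genes past 2-fold. Other members are given by value or count. Thinning used 1 random draw of 1000 UMIs per cell. The comparison was tested on simulated data. Members, lists and groups were chosen with earlier results of these data known. Promoter windows come from RefSeq, and gene overlaps from GENCODE vM21. Protein sequences were not used here. The result for 1 further release gene and 1 check that left out some neurons are not reported here.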

Additional observations from a re-analysis of the deposited data

Results flagged for a closer look

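In 455 anterior pituitary-like barcodes (median 2361 UMIs), which entered no comparison of neurons, 2 members stood above their level in red blood cell-like barcodes and in each of the 7 neuron groups, with intervals that did not overlap. Rab3b stood at 150.0 CPM (131 to 171), beside 74.2 in the Nefh group and 10.4 in red blood cell-like barcodes, and was seen in 141 of the 455 barcodes. Vamp3 stood at 68.7 (55.9 to 83.7), beside 28.2 in red blood cell-like and 129 in glia-like barcodes. Rab3b took 49.1% of the Rab3 family's UMIs in these barcodes, against 7.16% in the Nefh group.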

How the results depend on the processing

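Direction was kept by each of the 11 called members under all 15 alternatives run for single genes. Under all of these, 9 of the 11 also stayed past 2-fold, and the exceptions were Snap25, under 2-fold when cells were thinned, weighted equally or compared with the Trpm8 group added, and Syn2, under it when cells were thinned. Rab3b ranged from 1.25 (thinned) to 4.74 (red blood cell-like level subtracted), Syt7 from -2.78 to -1.35 and Syt4 from -2.44 to -1.18 (log2 ratios). The Syt2 share difference of 32.8 points became 36.0 when cells were thinned, 35.0 with 2 or more UMIs of Mrgpra3, Cd34 and Trpv1, 35.4 without the Calca-Trpv1 group and 30.7 with the Trpm8 group added. The Vamp1 share difference of 46.6 points became 52.2 when thinned, 52.5 with cells weighted equally, 43.7 without the Calca-Trpv1 group, 52.7 without the Cd34 group, 42.7 with the Trpm8 group added and 50.3 without Calca-rich myelinated neurons. The cause of these shifts was not tested. Of 11 calls, subtracting the red blood cell-like level left 15, with 11 higher in place of 7, which added Cplx2 and also Vamp3, Snap23 and Syn3. Subtraction left these last 3 genes at 0 in both sets, so their ratio there is that of 3 UMIs at 2 depths and shows no difference in level. At 1.5-fold there were 17 calls, 9 of them lower in place of 4. The share of all genes called at 1.5-fold or after subtraction is not given here, so these counts cannot be set beside it. Leaving out the 12 barcodes with a suffix and using Nefh per 1000 UMIs, both chosen after seeing the data, gave the same 11 members. Runs are not named by the barcodes, so no replicate could be left out. No paired analysis was possible because the cells form 1 pooled sample and the result comes from no test.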

Other observations

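The 1379 neurons in no group had a median of 1851 UMIs, and members took 0.795% of their UMIs. Their Syt2 share was 11.8% and their Vamp1 share 44.2%, and the summed level of 7 glial genes there was 8630 CPM. In anterior pituitary-like barcodes Cplx2 took 89.4% of the complexin UMIs, Syt4 took 73.2% of Syt4 and Syt11, and Vamp2 took 81.3% of Vamp1 and Vamp2.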
